A study of Mus musculus with 2 samples.

Results

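The 28 genes described here make cholesterol or control its making. They comprise the 2 SREBP transcription factor genes, 5 genes whose products hold, escort or cut SREBP, 8 genes of the mevalonate and isoprenoid steps, 12 genes of the squalene and sterol steps, and 1 gene for a sterol transfer protein. The rule names them by function and uses no measured value, and they are 28 of the 21938 protein-coding genes in the GENCODE annotation of GRCm38 (mm10). DNase-seq, in which DNase I cuts DNA that nucleosomes leave accessible, was carried out on whole ovary of B6CASTF1/J females of 36 days. These animals are first-generation hybrids of the C57BL/6J and CAST strains. The series has 1 group with biological replicates 1 and 2, no treatment and no contrast. The females are numbered 06 (replicate 1) and 05 (replicate 2) and have separate biosample entries, but share a donor entry, so the spread between libraries may be biological or technical.

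SREBP proteins are made as precursors in the membrane of the endoplasmic reticulum, where SCAP binds them and the INSIG proteins retain the complex while sterols are plentiful. When sterols fall, SCAP carries SREBP to the Golgi, site-1 and site-2 proteases release its DNA-binding part, and this enters the nucleus and binds sterol regulatory elements, usually beside NF-Y (which binds CCAAT boxes) and SP1 (which binds GC boxes), at the genes of cholesterol and fatty acid synthesis. In the ovary, cholesterol is the starting material of progesterone, androgens and estrogens, and theca, granulosa and luteal cells obtain it from lipoproteins and from synthesis.

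Promoter peaks were present in both libraries at all 28 genes, counting peaks that lay within 500 bp of any annotated transcription start. Of all protein-coding genes, 66.7% did. The value of a promoter is the deposited signal of its strongest peak. No source used here gives the scaling of that signal. The median over the 28 genes was 12.1 in replicate 1 and 5.60 in replicate 2, against 6.68 and 3.60 over the 14631 genes open in both libraries. As means of both libraries the medians were 9.01 and 5.15. In whole tissue, a site open in fewer cells and a site less open in each cell cannot be told apart.

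The tissue label was checked with marker genes. Promoter peaks were present in both libraries at 5 of 5 granulosa, 5 of 5 stromal and 4 of 5 theca and steroidogenic genes (all but Hsd3b1), at 1 of 5 oocyte genes (Gdf9, which shares its start region with Uqcrq), at 3 of 4 oviduct epithelium genes, at 1 of 4 endothelial, macrophage and adipocyte genes each, and at 0 of 4 hepatocyte genes. The libraries held 109169 and 114462 peaks and 301406 and 294269 footprints, which are short stretches inside open sites where cuts are depleted. Signal values were whole multiples of 1 step in each library, and the promoters of the 28 genes spanned 267 to 3374 steps in replicate 1 and 156 to 1335 in replicate 2. That 1 step is 1 read was not shown.

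The sequences in and beside the strongest regulatory stretches are shown first because the motif results refer to them. They come from the GRCm38 genome, which is that of C57BL/6J and not of the hybrid, and run from 5′ to 3′ on the strand of the gene. Capitals in this first set mark matches, on either strand, to the sterol regulatory element TCACNCCAC or its shorter form TCACNCNA, the CCAAT box, the E-box with its letters CACGTG, the GC box with its letters GGGCGG, and the core of the cyclic AMP response element TGACGT. The Hmgcs1 stretch (chr13:119690188-119690378, plus strand) ends at the annotated start and holds 1 of the 2 full sterol regulatory element matches found in the promoter peaks of the 28 genes. The Srebf1 stretches belong to separate starts, an upstream one (chr11:60222849-60222949, minus strand) and an internal one at the strongest peak (chr11:60210466-60210594, minus strand). Srebf2 (chr15:82147042-82147180, plus strand) and Fdps (chr3:89101987-89102151, minus strand) show the shorter form beside CCAAT boxes.
Hmgcs1: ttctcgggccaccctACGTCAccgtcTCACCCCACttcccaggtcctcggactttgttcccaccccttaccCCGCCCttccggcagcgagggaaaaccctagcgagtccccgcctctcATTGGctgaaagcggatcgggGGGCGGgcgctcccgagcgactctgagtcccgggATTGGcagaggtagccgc
Srebf1 upstream start: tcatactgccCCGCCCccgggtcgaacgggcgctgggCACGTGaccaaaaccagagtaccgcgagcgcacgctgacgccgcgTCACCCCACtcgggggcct
Srebf1 internal start: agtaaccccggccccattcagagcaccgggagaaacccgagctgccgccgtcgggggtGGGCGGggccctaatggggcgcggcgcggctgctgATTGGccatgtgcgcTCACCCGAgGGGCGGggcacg
Srebf2: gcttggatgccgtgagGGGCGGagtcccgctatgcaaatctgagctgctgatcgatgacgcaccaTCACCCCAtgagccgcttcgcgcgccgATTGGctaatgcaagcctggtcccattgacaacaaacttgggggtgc
Fdps: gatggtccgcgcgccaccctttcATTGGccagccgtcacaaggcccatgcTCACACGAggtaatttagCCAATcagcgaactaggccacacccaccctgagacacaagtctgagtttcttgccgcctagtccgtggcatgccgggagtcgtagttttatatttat

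A second set shows promoters with an E-box or a complete cyclic AMP response element. They were chosen after their values were seen, and their capitals have the same meaning. Hsd17b7 (chr1:169969317-169969408, minus strand) and Sc5d (chr9:42264257-42264408, minus strand) hold an E-box that footprints of both libraries touched, Pmvk (chr3:89458998-89459117, plus strand) holds the palindrome TGACGTCA, and Insig1 (chr5:28071135-28071357, plus strand) holds 3 GC boxes, an E-box, a CCAAT box and the response element core. In the Insig1 stretch no footprint touched the E-box or the CCAAT box.
Hsd17b7: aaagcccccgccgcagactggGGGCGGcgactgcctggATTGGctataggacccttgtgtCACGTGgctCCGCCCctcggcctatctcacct
Sc5d: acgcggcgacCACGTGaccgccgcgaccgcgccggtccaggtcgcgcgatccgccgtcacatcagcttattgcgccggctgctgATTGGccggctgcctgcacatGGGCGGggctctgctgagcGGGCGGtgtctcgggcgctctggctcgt
Pmvk: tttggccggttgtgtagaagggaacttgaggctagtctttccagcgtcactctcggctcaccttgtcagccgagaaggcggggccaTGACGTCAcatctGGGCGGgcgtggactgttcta
Insig1: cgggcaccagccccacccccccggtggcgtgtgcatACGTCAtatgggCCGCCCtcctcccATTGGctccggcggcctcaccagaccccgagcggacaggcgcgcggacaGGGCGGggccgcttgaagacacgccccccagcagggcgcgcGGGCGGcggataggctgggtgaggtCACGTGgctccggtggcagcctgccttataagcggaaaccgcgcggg

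The transcription factor genes were both open at several starts. At Srebf1, whose product drives mainly fatty acid synthesis, the strongest peak had a signal of 11.6 in replicate 1 and 4.88 in replicate 2 (mean 8.24 ± 4.75, SD, n = 2). It lay at an internal start (chr11:60210421-60210620 in replicate 1, in an intron), and peaks at other starts had values of 9.59, 7.22 and 6.18 in replicate 1, and of 4.84 and 3.32 in replicate 2. Summed over its promoter peaks, Srebf1 reached a mean of 23.8, so the strongest peak carried a minor share of its signal. Srebf2, whose product drives mainly cholesterol synthesis, stood at 15.7 and 7.57 (mean 11.6 ± 5.75), inside the highest decile of all open promoters by signal, which began at 11.5.

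Of the genes that govern SREBP processing, 4 of 5 lay above the median of all open promoters and 3 in the highest decile. Insig1, which retains SCAP and is itself a target of SREBP, had a signal of 19.9 in replicate 1 and 7.31 in replicate 2 (mean 13.6 ± 8.88). Its homologue Insig2 had 10.8 and 4.80 (7.80 ± 4.24). Scap, the escort, had 15.4 and 8.0 (11.7 ± 5.23), and Mbtps1, the site-1 protease, 16.9 and 8.74 (12.8 ± 5.75). Mbtps2, the site-2 protease, had the lowest value of the 28 genes, 1.74 and 1.02 (1.38 ± 0.508), at percentile 15.5. The Mbtps2 start lies 20 bp from that of Yy2, so their promoters cannot be told apart. In each library the Mbtps2 value stood below that of every other gene of the 28, and within this role group the ranges of Mbtps2 and of the others did not overlap.

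By the mean of both libraries, all 8 genes of the mevalonate and isoprenoid steps lay above the median of all open promoters, between 5.30 and 11.8. Pmvk was just above it (percentile 51.3), and its 3.43 in replicate 2 lay below the median of that library. Acat2, which joins acetyl units in the cytosol, had 9.03 in replicate 1 and 5.14 in replicate 2 (7.08 ± 2.75). Hmgcs1, which makes HMG-CoA, had 15.1 and 7.21 (11.1 ± 5.57). Mevalonate kinase, Mvk, had 14.6 and 8.20 (11.4 ± 4.51), at a peak shared with the start of Mmab, 209 bp away. All 3 of these first enzymes had values above the library medians of all open promoters in both libraries.

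Among the enzymes that follow, Mvd, which yields isopentenyl diphosphate, was the highest with 15.8 and 7.85 (11.8 ± 5.59). Pmvk, the kinase before it, was the lowest of the group with 7.17 and 3.43 (5.30 ± 2.65), and its open start is not the most upstream one annotated. The isomerase Idi1 had 11.6 and 6.41 (9.02 ± 3.69). Fdps, which makes farnesyl diphosphate, had 7.49 and 4.29 (5.89 ± 2.27), and Ggps1, which makes geranylgeranyl diphosphate, 10.7 and 4.69 (7.68 ± 4.23). Fdps shares its start region with Gm43738 (216 bp) and Ggps1 with Arid4b (141 bp), so these promoters cannot be told apart either.

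The squalene and sterol steps held both the highest gene and low ones. Dhcr7, which performs the last reduction of one route to cholesterol, had the highest mean of the 28 genes, with 22.0 in replicate 1 and 8.45 in replicate 2 (15.2 ± 9.56, percentile 97.9). The starts of Dhcr7 and Nadsyn1 lie 296 bp apart, so their promoters cannot be told apart at this strongest peak, chr7:143822821-143823080. Dhcr7 had weaker peaks at internal starts, with 8.60 and 4.43 at one and 4.82 and 4.06 at another. Hsd17b7, a ketoreductase of C4 demethylation, followed with 15.6 and 6.98 (11.3 ± 6.12).

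Entry into the sterol branch was open throughout. Fdft1, squalene synthase, had 12.7 and 7.55 (10.1 ± 3.61), from different starts: the strongest peak was at chr14:63164661-63165040 in replicate 1 and at chr14:63178081-63178220 in replicate 2, and the latter start had 12.5 in replicate 1. Sqle, which epoxidises squalene, had 13.2 and 5.12 (9.18 ± 5.74), and Lss, which closes the lanosterol rings, 12.4 and 5.76 (9.09 ± 4.71). Cyp51, the lanosterol demethylase, was lower at 6.64 and 3.32 (4.98 ± 2.35), just under the median of all open promoters.

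The sterol C14 reductase activity is encoded by Tm7sf2 and by Lbr, which is also a receptor of the nuclear lamina. Tm7sf2 had 9.35 and 4.71 (7.03 ± 3.28) and shares its start region with Vps51 (698 bp), while Lbr had 13.9 and 5.80 (9.83 ± 5.70). Lbr was higher than Tm7sf2 in both libraries. Msmo1, the C4 methyl oxidase, had 12.1 and 5.85 (8.99 ± 4.44), and Sc5d, the desaturase, 12 and 4.83 (8.42 ± 5.08). Stard4, a carrier of cholesterol between membranes, had 10.6 and 5.45 (8.03 ± 3.64).

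The X-linked genes Nsdhl, the dehydrogenase that works with Msmo1, and Ebp, the sterol isomerase, completed the group at the low end. Nsdhl had 5.04 and 2.45 (3.74 ± 1.83) and shares its start region with Cetn2 (146 bp). Ebp had 3.05 and 1.95 (2.50 ± 0.776). With Mbtps2 these 3 X-linked genes had the lowest values of the 28, with a median of 2.50, while the 25 autosomal genes ranged from 4.98 to 15.2. The 472 open X-linked promoters of the whole annotation had a median of 2.55 and the 14159 autosomal ones 5.30. Of the X-linked genes here, Ebp stood close to the median of its chromosome, Mbtps2 (1.38) below it and Nsdhl above it.

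**Figure D1:**
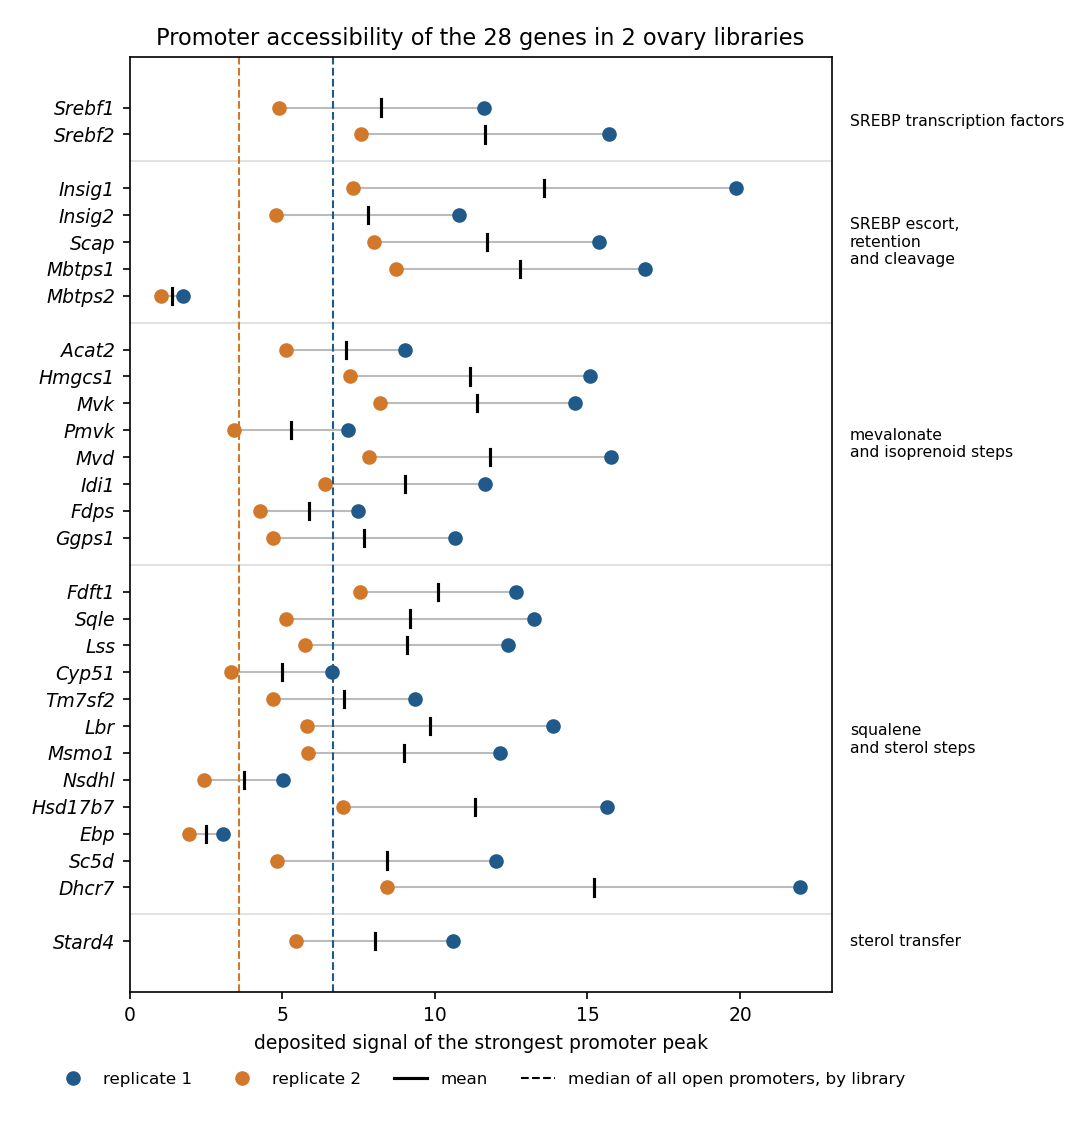
Deposited signal of the strongest promoter peak (x axis, arbitrary units) of each of the 28 genes, grouped by role, with blue points for replicate 1, orange points for replicate 2 and a black tick for their mean. Dashed lines give the library medians over all open promoters, 6.68 and 3.60, and Mbtps2, Nsdhl and Ebp are the genes whose points lie farthest to the left.

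Over all 28 genes, 24 had a mean above the median of all open promoters, and 6 lay in the highest decile (Srebf2, Insig1, Scap, Mbtps1, Mvd and Dhcr7). The remaining 4 were Mbtps2, Ebp, Nsdhl and Cyp51. The median percentile was 78.4. The strongest peaks of both libraries overlapped for 27 genes, all but Fdft1, and for 23 genes their centres lay within 150 bp of a start in both libraries. All 28 strongest peaks were also in the authors' shorter peak lists. The shares of all open promoters with such overlap, centres or listing are not given here, so these counts do not set the genes apart.

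Every one of the 28 promoters had a higher signal in replicate 1, and so did 96.7% of all promoters open in both libraries. The log2 ratio of replicate 2 to replicate 1 had a median of -1.05 over the genes and of -0.88 over all open promoters (SD 0.39 across promoters). Relative to the latter, 21 of 28 genes were below 0, with a median of -0.16. Insig1 (-0.56), Dhcr7 (-0.50) and Sqle (-0.49) were lowest and Ebp (0.24) highest.

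The ratio moved with the level of the promoter in the whole data, from -0.42 in the lowest decile of signal to -1.09 in the highest. Set against promoters of the same decile, the median of the genes was -0.09, with Sqle at -0.39, Insig1 at -0.35 and Fdft1 at 0.31. The Fdft1 ratio compares peaks at different starts and not the same site. Its strongest peak of replicate 1 (12.7) overlapped a peak of replicate 2 with 6.07, which was not the strongest there. The SD of ratios set against the same decile was 0.33 across all open promoters. Sqle, Insig1 and Sc5d (-0.33) lay beyond it and the other genes within it. The share of all open promoters beyond it is not given here, so this does not set these genes apart. With 1 library per animal there is no test of any of these ratios.

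**Figure D2:**
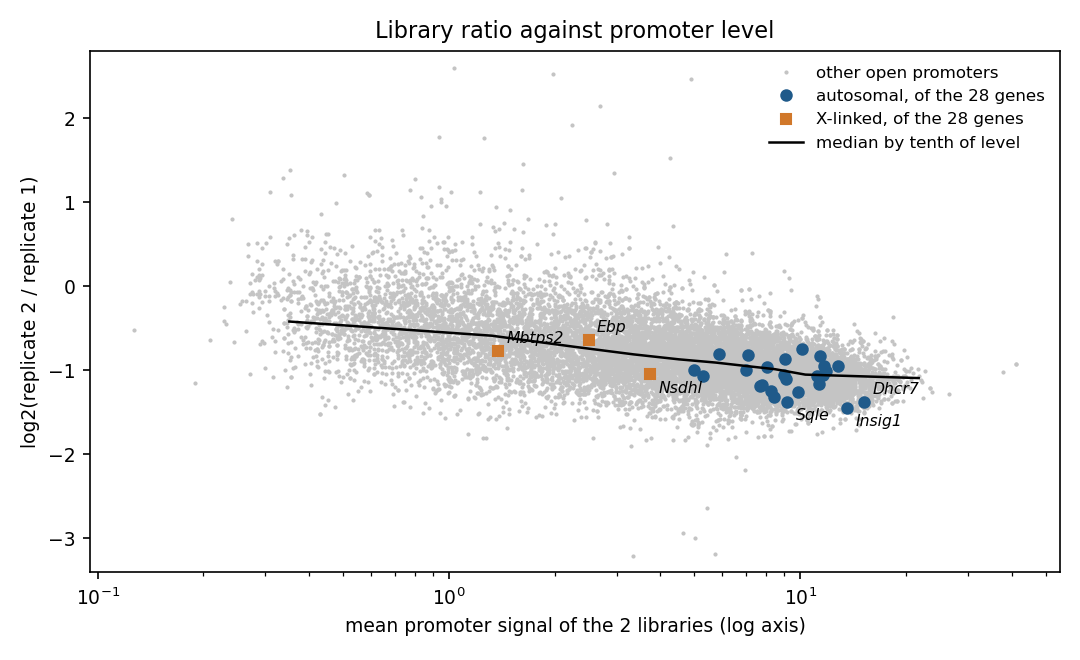
Log2 ratio of replicate 2 to replicate 1 (y axis) against mean promoter signal (x axis, log scale) for all 14631 promoters open in both libraries in grey, with the 25 autosomal genes as blue circles and the 3 X-linked genes as orange squares. The black line joins the medians of the deciles of signal and falls from -0.42 to -1.09, and all 28 genes lie below 0.

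Footprints were found inside the promoter peaks of all 28 genes in both libraries, as in 97.3% of all open promoters, and at least 1 footprint was shared between the libraries in all 28, as in 92.8%. The genes' promoters held 167 footprints in replicate 1 and 206 in replicate 2. Of those in replicate 1, 122 (73.1%) overlapped one of replicate 2. The share over all open promoters was 56.9%, but it rose with the signal from 23% in the lowest decile to 71.7% in the highest, and the genes are mostly in the upper deciles. Shared footprints per gene had a median of 4, against 3 over all open promoters. Srebf1 had the most, 10, followed by Dhcr7 with 9, and Mbtps2 the fewest, 1. Footprints in these promoters were 13 and 12 bp wide at the median, against 10 and 9 bp for all footprints of the libraries. The latter are not limited to promoters or matched for signal, so these widths do not set the genes apart from other promoters.

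Sterol regulatory elements were searched as TCACNCCAC on both strands. A promoter match counted as touched where it met a footprint wholly inside a promoter peak of the same library. A match outside the promoter peaks of a library could thus not count as touched in it. In a window of 300 bp at the strongest peak, 1 of 28 genes had a match (Hmgcs1), against 1.05% of all open promoters. In the joined promoter peaks of both libraries, 2 genes had one, against 2.56%. The Hmgcs1 match lies at -161 bp, counted from the start with upstream positions negative, and was met by a footprint of replicate 2 at 1 of its 9 bases, and by none of replicate 1. That footprint covers the neighbouring response element core. The Srebf1 match lies at -282 bp and was touched by none. With 1 more base left free (TCACNCNAC), 2 genes had a match in the window, Hmgcs1 and Nsdhl, against 2.34%.

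The shorter form TCACNCNA was added after the printed promoters had been read, since Srebf2 and Fdps hold it, so its count was fitted in part to these genes. It was matched in the window of 7 of 28 genes (Srebf1, Srebf2, Hmgcs1, Fdps, Msmo1, Nsdhl and Ebp), against 7.95% of all open promoters. In the joined peaks there were 8 such matches in 7 genes, and 16.6% of all open promoters had one there. Over all promoters, footprints of both libraries touched 8.69% of such matches. In these genes they touched 1 of the 8 (12.5%), at the internal start of Srebf1 (-18 bp, 4 of its 8 bases in replicate 1 and 5 in replicate 2). A GC box lies under the same footprint. At Srebf2 (-70 bp) and Fdps (-139 bp) no footprint touched the match. The CCAAT box of the Srebf2 stretch lay wholly inside footprints of both libraries. At Fdps the CCAAT box at -167 bp was met at 1 of its 5 bases in replicate 1 and 2 in replicate 2. The other Fdps box, at -122 bp, was touched in neither library. A match is a description of the letters and not of a bound site.

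CCAAT boxes were frequent in these promoters. Of the 28 genes, 19 (67.9%) had a match in the window, against 35.6% of all open promoters and 52.6% of those in the highest decile of signal. At least 2 matches were present in 12 genes (42.9%), against 13%. Nsdhl and Stard4 had 4 each, and Fdps, Hmgcs1, Hsd17b7, Idi1, Msmo1 and Mvk 3 each. Of the 41 matches, 46.3% lay 40 to 120 bp upstream of a start, against 38.5% in all open promoters. In the joined peaks 12 of 59 CCAAT matches (20.3%) were touched by footprints of both libraries, against 16.7% for all promoters, so most were not touched in both.

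GC boxes were found in the window of 24 genes (85.7%), against 71.3% of all open promoters and 80.5%, 84.1% and 88.8% in the 3 highest deciles of signal, where most of the genes lie. In the joined peaks 38 of 72 matches (52.8%) were touched by footprints of both libraries, against 33.7% over all promoters. Neither this comparison nor the same one for CCAAT boxes was matched for signal, with which footprint sharing rose. The base composition of the windows was close to that of all open promoters, with a median GC content of 65.5% against 65.3% and a CpG ratio of 0.838 against 0.817.

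E-boxes were found in 7 of 28 windows (25%), those of Insig1, Scap, Fdft1, Lss, Hsd17b7, Ebp and Sc5d, against 10.0% of all open promoters and 12.5% of those in the highest decile of signal. In the joined peaks, footprints of both libraries touched the E-boxes of Srebf1, Hsd17b7 and Sc5d. These are 3 of 7 matches (42.9%), against 19.1% over all promoters, a share likewise not matched for signal. The Hsd17b7 E-box lay wholly inside them, while footprints of replicate 1 met 4 of 6 bases at Srebf1 and 2 of 6 at Sc5d. The complete cyclic AMP response element TGACGTCA occurred at Pmvk (-30 bp) and at Idi1 (-119 bp) (2 genes, against 3.53%), and both lay wholly inside footprints of both libraries. Over all promoters, 72.0% of its matches were touched in both libraries. Its core, which the complete form contains, occurred in 5 genes, against 11.5%.

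Other motifs were searched in the same windows. NRF1 (GCGCANGCG) was matched in 7 genes (25%) against 15.1%, with 7 of 11 matches in the joined peaks touched in both libraries (63.6%, against 65.5%). The NRF1 matches of Fdft1 and Dhcr7 are not among the 7, as they lay in a promoter peak of replicate 2 alone. With footprints outside peaks included, footprints of both libraries covered them. ETS factors (CCGGAAG) were matched in 4 genes (14.3%) against 18.0% and YY1 (AANATGGCG) in 2 (7.14%) against 5.99%. The NR5A motif CAAGGTCA, which Nr5a1 and Nr5a2 bind in steroidogenic cells, was matched in 0 of 28 windows, against 0.793%. A core of the CTCF motif, added after the distal sites had been read, was matched in 3 genes (Insig2, Scap and Mbtps1, 10.7%), against 6.90%. Of the 122 shared promoter footprints, 39 touched a GC box, 13 a CCAAT box, 7 an NRF1 match and 3 an E-box, while 58 touched none of the motifs searched.

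**Figure D3:**
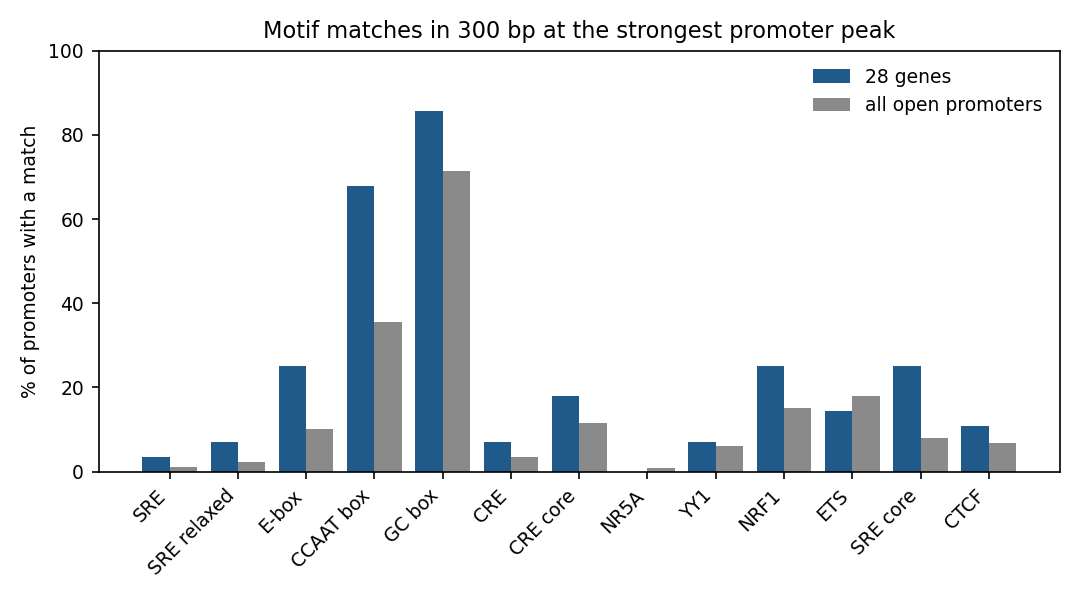
Share of promoters with at least 1 match (y axis, percent) to each motif in 300 bp at the strongest promoter peak, for the 28 genes (blue) and all 14631 open promoters (grey). The CCAAT box differs most, with 67.9% against 35.6%, and the last 2 motifs were added after the data had been seen.

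**Figure D4:**
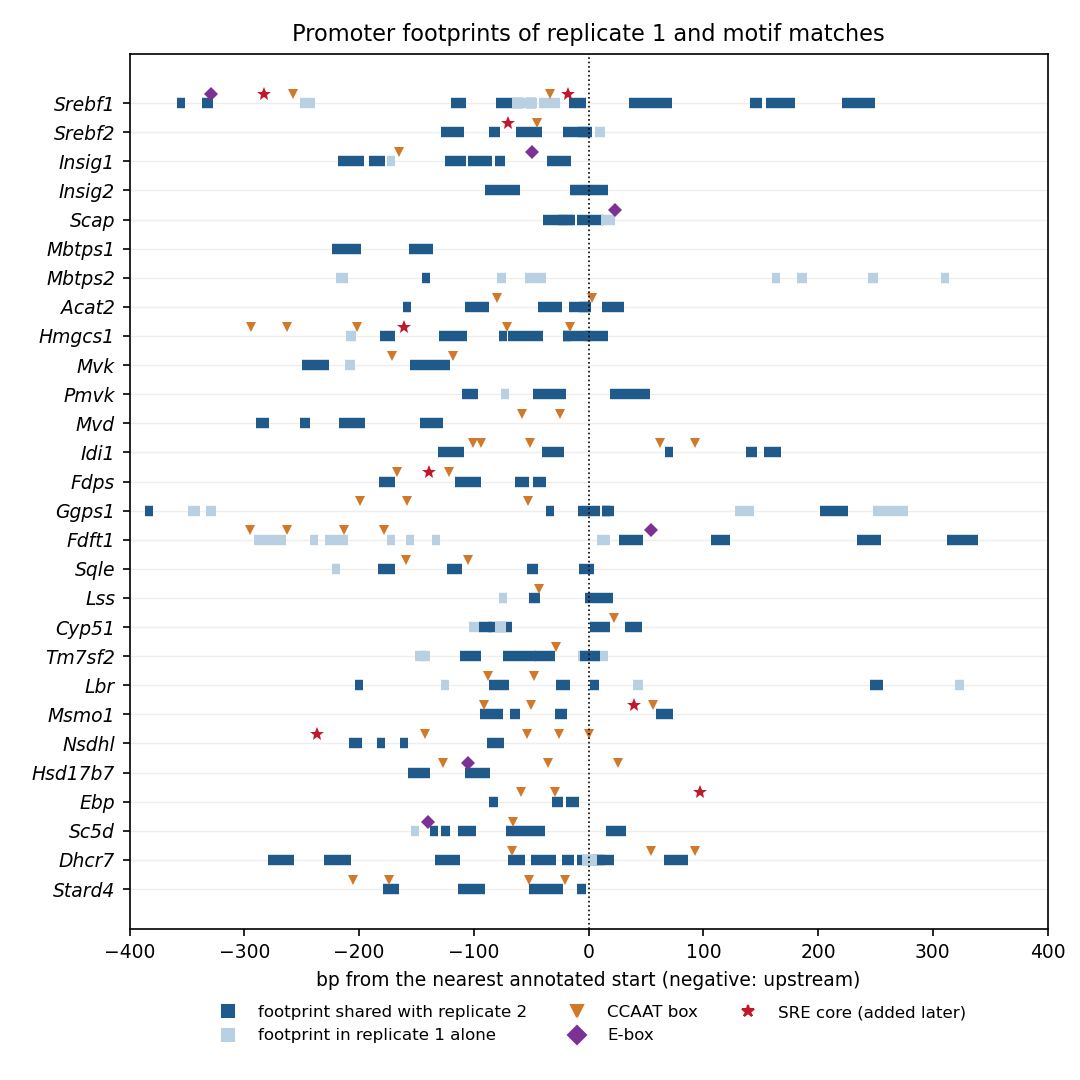
Footprints of replicate 1 in the promoter peaks of each gene, drawn to scale within 400 bp of the nearest annotated start (x axis, bp), dark blue where replicate 2 has an overlapping footprint and pale blue where it has none. Markers above each line are CCAAT boxes (orange triangles), E-boxes (purple diamonds) and the shorter sterol regulatory element (red stars). For genes with several starts, such as Srebf1 with 10 shared footprints, sites near different starts are drawn on 1 line.

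Away from promoters, 75 peaks of replicate 1 and 84 of replicate 2 had their centre over 1 kb from every annotated start and one of the 28 genes as the nearest protein-coding gene. Of the peaks of replicate 1, 61 were shared and 14 were in that library alone, and 24 peaks were in replicate 2 alone. At Dhcr7, 2 shared peaks of replicate 1 overlapped the same 1 peak of replicate 2, which is counted with each. A shared distal peak was present at 20 of 28 genes, against 58.0% of all protein-coding genes. The genes had a median of 1.5 and a mean of 2.18 such peaks, against 1 and 2.40. Nearness does not show which gene a site acts on.

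Insig2 had the most, 10, followed by Sqle with 6 and Pmvk with 5. No distal peak in either library had Acat2, Idi1, Fdps, Ggps1, Cyp51, Tm7sf2, Nsdhl or Ebp as its nearest gene. Of the Insig2 sites, 9 lay over 100 kb away, and the strongest of them (2.07 and 1.53) lay at 127 kb. Over the genes, 31 of the 61 sites were intergenic, 20 were in introns and the rest in exons.

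Distal sites were weaker than promoters. Their median value was 0.820, against 0.793 for all shared distal peaks, and 19 of 61 exceeded the promoter of Mbtps2. The log2 ratio of replicate 2 to replicate 1 had a median of -0.44, against -0.28 for all. At 15 of the 61 sites replicate 2 was higher, but the share over all shared distal peaks is not given here. Among them is a Dhcr7 site (0.469 and 1.01) whose peak of replicate 2 is also counted with another site. The distance to the start had a median of 23.3 kb and ran from 1.18 to 343 kb.

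The 2 strongest sites belonged to the mevalonate group and are printed here because they had the highest values. Capitals in this pair mark bases inside footprints of both libraries. The site nearest to Mvk, 9.02 kb from its start (chr5:114461341-114461540, plus strand, intergenic), had 5.03 in replicate 1 and 2.72 in replicate 2 (3.88 ± 1.63, SD, n = 2). The site nearest to Pmvk, 25.8 kb away (chr3:89485261-89485420, plus strand, intergenic), had 4.82 and 2.31 (3.56 ± 1.77).
Mvk distal: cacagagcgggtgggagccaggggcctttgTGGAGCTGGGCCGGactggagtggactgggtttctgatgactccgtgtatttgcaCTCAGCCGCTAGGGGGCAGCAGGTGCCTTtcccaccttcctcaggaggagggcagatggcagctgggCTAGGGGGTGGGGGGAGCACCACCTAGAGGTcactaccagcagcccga
Pmvk distal: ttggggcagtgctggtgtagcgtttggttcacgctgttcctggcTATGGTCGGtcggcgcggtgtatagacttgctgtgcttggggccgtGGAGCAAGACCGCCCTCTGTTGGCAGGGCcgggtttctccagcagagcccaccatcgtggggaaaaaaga

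Both stretches contain a match to the core of the CTCF motif under a footprint of both libraries. CTCF is a zinc finger protein that organises chromatin loops. The form searched was chosen after these stretches had been read, and left positions free so that both match it. In 200 bp at the centre, 7 of 61 shared distal peaks of the genes held a match, at Mvk, Pmvk (2 sites), Insig1, Insig2, Srebf1 and Srebf2, against 15.6% of all shared distal peaks. Footprints of both libraries touched 6 of the 7, and over all shared distal peaks 86.4% of those with a match.

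In the other role groups the strongest shared sites were weaker. Insig1 had one at 19.5 kb with 3.65 and 2.16 (2.91 ± 1.06) and one at 76.0 kb with 2.42 and 1.65 (2.03 ± 0.542). Srebf2 had one in its own intron, 17.5 kb from the start, with 2.49 and 2.01 (2.25 ± 0.339), and Srebf1 one in a coding exon of Rai1, 11.5 kb away, with 2.46 and 0.910 (1.68 ± 1.09). For the sterol steps, Sc5d had 1.84 and 1.33 at 46.3 kb (1.59 ± 0.364), and at 67.5 kb a site that was higher in replicate 2, with 1.17 and 1.85 (1.51 ± 0.481). Stard4 had 0.664 and 0.563 at 123 kb (0.614 ± 0.0718) and 0.397 and 0.641 at 79.1 kb (0.519 ± 0.173).

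**Figure D5:**
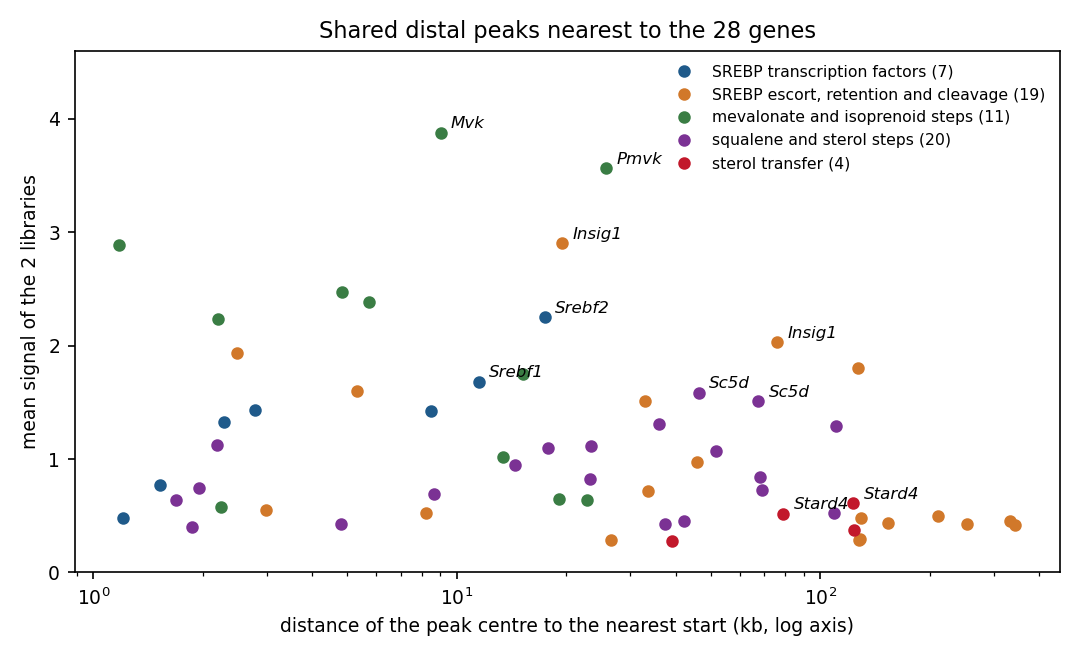
Mean signal of both libraries (y axis) against distance of the peak centre to the nearest start (x axis, kb, log scale) for the 61 shared distal peaks, coloured by role, with the number of sites per role in the legend. The 2 strongest sites of each role carry the name of their nearest gene, and the Mvk (3.88) and Pmvk (3.56) sites are the highest.

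The NR5A motif CAAGGTCA was matched in 3 of 61 shared distal peaks (4.92%), close to the 3.85% of all shared distal peaks. The 3 matches lay nearest to Mvk, Sqle and Msmo1. Of all shared distal peaks with a match, 24.4% had it touched by footprints of both libraries. The Sqle match was the only one of the 3 that footprints of both libraries touched, at 4 of its 8 bases in replicate 1 and 1 in replicate 2, and its stretch (chr15:59246152-59246209, plus strand, 68.9 kb from the start, intergenic) is shown with the match in capitals, chosen after its values were seen. No full sterol regulatory element match was found in a shared distal peak of the genes.
Sqle distal: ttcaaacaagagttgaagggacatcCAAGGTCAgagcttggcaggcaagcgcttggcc

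Other genes of the pathway, listed by role, were mostly open too. Of 43 genes in 6 lists, 42 had a promoter peak in both libraries, with a median value of 7.48. The exception was Soat2, a cholesterol acyltransferase, with a peak in replicate 1 alone (0.866). The 5 factors that work with SREBP had a median of 10.7. Nfya, a subunit of NF-Y, had 25.2 and 11.6 (18.4 ± 9.66), near the start of Oard1, and Creb1 had 17 and 7.15 (12.1 ± 6.97).

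The 13 genes of the fatty acid arm had a median of 7.32. Acly, which supplies cytosolic acetyl-CoA, had 17.4 and 6.75 (12.1 ± 7.56), and Acss2, which makes it from acetate, 16.0 and 7.71 (11.9 ± 5.86). Fasn, the fatty acid synthase, had a TCACNCCAC match in its promoter peaks, as had Ch25h, which makes an oxysterol, and no other of the 43 genes did.

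The 9 genes of the prenyl branch had a median of 7.64, led by Icmt, a methyltransferase of prenylated proteins, with 22.9 and 9.61 (16.2 ± 9.39), and the farnesyltransferase subunit Fntb with 14.7 and 7.25 (11 ± 5.24). The 7 genes for the sterol-regulated degradation of the reductase and the INSIG proteins had a median of 5.20, led by Erlin2 with 15.0 and 7.23 (11.1 ± 5.46) and Rnf139 with 9.95 and 4.29 (7.12 ± 4.00). Among the 6 oxysterol and LXR genes the median was 5.16. Mylip, a ubiquitin ligase that LXR induces, had 18.7 and 8.07 (13.4 ± 7.53), and Nr1h3, which encodes LXR alpha, 11.3 and 7.53 (9.44 ± 2.70). The esterification genes Soat1 (10.6 and 5.18, 7.88 ± 3.82) and Nceh1 (9.55 and 4.92, 7.24 ± 3.28) were open in both libraries. The starts of Acss2 (Ggt7 and Gss), Fntb (Churc1), Rnf139 (Gm49356) and Nr1h3 (Acp2) lie within 1 kb of the neighbours in parentheses. In each of these named genes with a value in both libraries, replicate 1 was the higher.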

How the data were processed

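DNase-seq libraries of 2 ovaries (1 group, replicates 1 and 2) were used. For each library the authors deposited peaks in a longer and in a shorter list, with a signal per peak, a list of footprints with a score that was the same in every line, so that only positions were used, and q-values per base, listed only where low. Coordinates are on mm10, per the labels. Aligner, peak and footprint callers, versions and cutoffs were not given in the sources used here.

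The longer lists were used. Genes and starts came from GENCODE (GRCm38), and sequences from the RefSeq GRCm38 genome, read with pysam 0.24.0. Values were computed in Python 3.11.15 with numpy 2.4.6 and pandas 2.3.3. A promoter peak lay within 500 bp of any start, and a distal peak had its centre over 1000 bp from every start. Shared peaks and footprints overlapped by at least 1 base. Motifs were searched on both strands. Depth is unknown, and the functions were tested on simulated data.

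The members and lists were chosen with earlier results of these data known. All 28 genes are named. Among distal peaks the 2 of highest mean value per role are named, and among other pathway genes the 2 of highest mean value per list. With 1 group there is no test between groups, and values are mean ± SD of 2 libraries, so intervals that need counts are not given. Alternatives were the peak list, each library alone, the promoter distance, the starts used, the sum of peaks, the distal distance and overlap, and the consensus.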

Additional observations from a re-analysis of the deposited data

How the results depend on the processing

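Counts of open promoters and of genes with a footprint in both libraries stayed within 1.5 times, and the median promoter value within 4.58 (the SD of the 2 library medians), under every alternative run. That SD is set by the difference in level between the libraries. It is a wide tolerance, which leaving out a library could hardly exceed. With the most upstream start alone, 25 genes were open, since Insig2, Pmvk and Fdft1 had no peak there. Leaving out a library gave a median promoter value from 5.60 to 12.1, between 75 and 84 distal peaks in place of 61 shared ones, and 28 open genes, 28 with footprints and 2 with a sterol regulatory element each time. A library ratio cannot be given without a replicate. Summing the promoter peaks gave a median of 11.2 and moved 8 genes by more than their SD, among them Srebf1 from 8.24 to 23.8. The count of shared distal peaks depended on the peak list, and was 35 with the shorter lists. The genes with a sterol regulatory element in a promoter peak numbered 1 with starts of protein-coding transcripts alone. Among settings chosen after seeing the data, it was 7 with the shorter consensus and 1 in the 300 bp window, against 16.6% and 1.05% of all open promoters. Also chosen after seeing the data, the median library ratio was -0.16 relative to all open promoters and -0.089 relative to the same decile of signal, against -1.05 as deposited. The median promoter value was 9.09 both without the X-linked genes and without the genes that share a start region. The number of libraries limits the precision of every value.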
